A study of Mus musculus with 15 samples.

Results

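Prostaglandins are lipid signals made from arachidonic acid, and 10 genes of their synthesis, breakdown and reception were followed in the mouse uterus after estrogen. They are the synthases Ptgs1, Ptgs2, Ptges and Ptgis, the degrading enzyme Hpgd, and the receptors Ptgfr, Ptger2, Ptger3, Ptger4 and Ptgir. The array carried 18 probes whose gene name equaled one of these symbols, out of 41174 probes that are not controls and 27962 gene names, and 16 of the 18 were bright enough to be tested. The set was drawn up with earlier results of these arrays known, and its genes were chosen by their known roles and, for Ptgfr, selected on the loss of signal at 2 hr. The 2-hr values of Ptgfr against saline are therefore a description without a test.

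The 15 one-color arrays held uterine RNA of ovariectomized adult mice, at least 10 weeks old and rested for 10 to 14 days, with 3 arrays in each of 5 groups. Animals received an intraperitoneal injection of 100 μl saline, or of 250 ng 17β-estradiol (E2) or estriol (E3), a related estrogen with an additional hydroxyl group on its D ring. Saline uteri were collected at 24 hr, and E2 and E3 uteri at 2 and 24 hr. Both times were therefore set against the same 3 saline arrays. There was no saline group at 2 hr. In the 2-hr comparisons with saline, the effect of either hormone therefore cannot be told apart from that of time since injection. The mice of the saline, E3 and 24-hr E2 arrays were C57bl6/J with no genotype given. The 2-hr E2 mice were C57bl6/Jx129, labeled WT for esr1, and their arrays sat on other slides and were read on another scanner and day. The effect of E2 at 2 hr therefore cannot be told apart from those of strain, slide, scanner and day. The 24-hr E2 and E3 arrays also shared no slide with the saline arrays, so those comparisons carry slide differences too. The sample descriptions state that each uterus was processed singly, whereas the study's methods describe pooled tissue. If the tissue was pooled, p-values would measure only the spread between arrays.

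Phospholipases free arachidonic acid from membranes, and the cyclooxygenases encoded by Ptgs1 and Ptgs2 convert it to the intermediate prostaglandin H2. Terminal synthases then make the separate products, among them prostaglandin E2 (Ptges) and prostacyclin (Ptgis), and the dehydrogenase encoded by Hpgd inactivates prostaglandins E2 and F2α. Each product acts through its own G protein-coupled receptors. In the uterus these signals are known for roles in vascular permeability, implantation, decidualization and the contractions of labor.

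The level of a gene is given as normalized log2 intensity, which is the log2 ratio of a probe's processed signal to the signal at the 75th percentile of its array. Where a gene had more than 1 probe, the brightest stood for it. Levels of different probes are not comparable, and only differences of the same probe between groups were tested. A call required a change of 2-fold or more with a limma p-value under 0.001, and adjusted p-values are over all tested probes. The 10 representative probes were well above background on each of the 15 arrays. An array had 77.8% to 81.8% of its probes well above background, and its 75th percentile lay between 2989 and 4412 intensity units. Whole uteri were measured, so fewer cells of a type and less RNA per cell cannot be told apart.

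The 250 bases before the annotated start of transcription are printed for Ptges, Hpgd and Ptgfr, because these genes carried the largest early rise of the 10, the early fall of the degrading enzyme and the early fall of a receptor. They come from RefSeq (GRCm38.p6), which held a window for 9 of the 10 genes (Ptgis was not among them), and are written 5′ to 3′ on the gene's strand. Capitals mark matches to the estrogen response element half-site GGTCA and to the Sp1 motif GGGCGG on either strand, so that TGACC and CCGCCC are matches to the opposite strand. The windows lie at chr2:30903298-30903547 (minus strand, Ptges), chr8:56294302-56294551 (plus strand, Hpgd) and chr3:151837529-151837778 (minus strand, Ptgfr).

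Ptges: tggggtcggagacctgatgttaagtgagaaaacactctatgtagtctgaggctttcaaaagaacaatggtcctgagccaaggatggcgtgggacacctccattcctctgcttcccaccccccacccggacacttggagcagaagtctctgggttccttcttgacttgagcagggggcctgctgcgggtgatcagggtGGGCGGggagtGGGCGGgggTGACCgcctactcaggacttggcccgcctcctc

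Hpgd: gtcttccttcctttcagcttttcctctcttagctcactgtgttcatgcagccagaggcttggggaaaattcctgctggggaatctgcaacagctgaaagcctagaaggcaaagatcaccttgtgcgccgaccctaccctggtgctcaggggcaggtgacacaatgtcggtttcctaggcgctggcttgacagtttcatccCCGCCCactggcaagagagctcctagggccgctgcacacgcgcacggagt

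Ptgfr: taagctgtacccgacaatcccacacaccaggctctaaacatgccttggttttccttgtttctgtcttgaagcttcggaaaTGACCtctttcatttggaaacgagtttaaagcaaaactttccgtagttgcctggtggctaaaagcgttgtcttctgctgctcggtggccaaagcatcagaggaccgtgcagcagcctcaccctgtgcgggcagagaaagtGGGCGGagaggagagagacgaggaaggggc

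The half-site was present in 3 of the 9 windows (Ptgs1, Ptges and Ptgfr), beside 35.2% of 32851 promoter windows of the same length. The Sp1 motif was present in 7 of 9, beside 32.7%. The full palindromic estrogen response element (which holds the half-site on both strands), the AP-1 motif TGANTCA and the TATA box TATAAA had no match in the 9 windows, and they occurred in 0.0639%, 6.75% and 12.4% of all windows. A match describes letters in a window and is not a binding site, and the absence of one says nothing of sequence farther away.

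At 2 hr, Ptges rose steeply, whereas Hpgd, Ptgfr, Ptger2, Ptger4 and Ptgir were low after both hormones on their representative probes. The other probe of Ptgir did not fall. At 24 hr only Ptgs2, after E2, lay more than 2-fold from saline on its representative probe. Ptgfr was left out of the 2-hr counts against saline. After E2 at 2 hr, 8 of the 9 other genes were called, where 21.2% of all 34766 tested probes were called. Ptges and Ptgis were higher, and Ptgs1, Hpgd, Ptger2, Ptger3, Ptger4 and Ptgir were lower. After E3 at 2 hr, 5 of 9 were called, with 13.8% of all probes, and Ptges was higher and Hpgd, Ptger2, Ptger4 and Ptgir were lower. The median log2 difference of the 9 genes was -1.29 for E2 and -0.81 for E3, beside medians of -0.08 and -0.11 over all tested probes. At 24 hr, 1 gene (Ptgs2, lower) was called after E2 and 0 after E3, with 18.1% and 3.81% of all probes called. At 24 hr, 7 of the 10 genes had an unadjusted limma p below 0.05 for E2 and 5 for E3, beside 65.1% and 44.4% of all probes, so that these shares were near those of all probes.

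**Figure D1:**
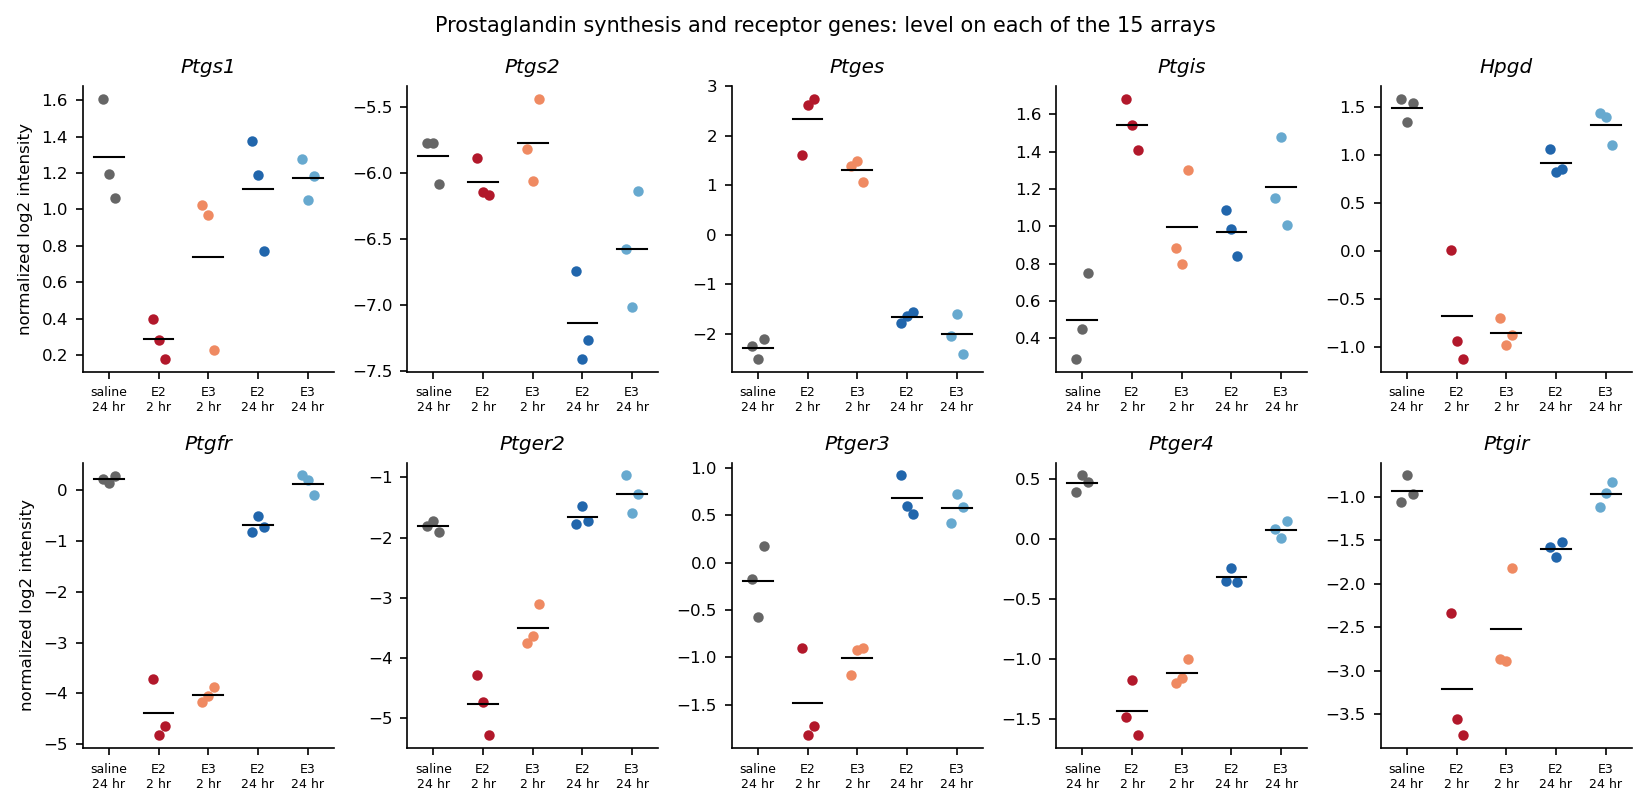
Normalized log2 intensity of the 10 genes (y axis, a separate scale for each gene) on each array of the 5 groups (x axis); points are arrays and black lines are means of 3. Ptges was between 1.08 and 2.74 on the 6 arrays at 2 hr and at or below -1.56 on the remaining 9, whereas Ptgfr was at or below -3.71 at 2 hr and at or above -0.82 on the remaining arrays.

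**Figure D2:**
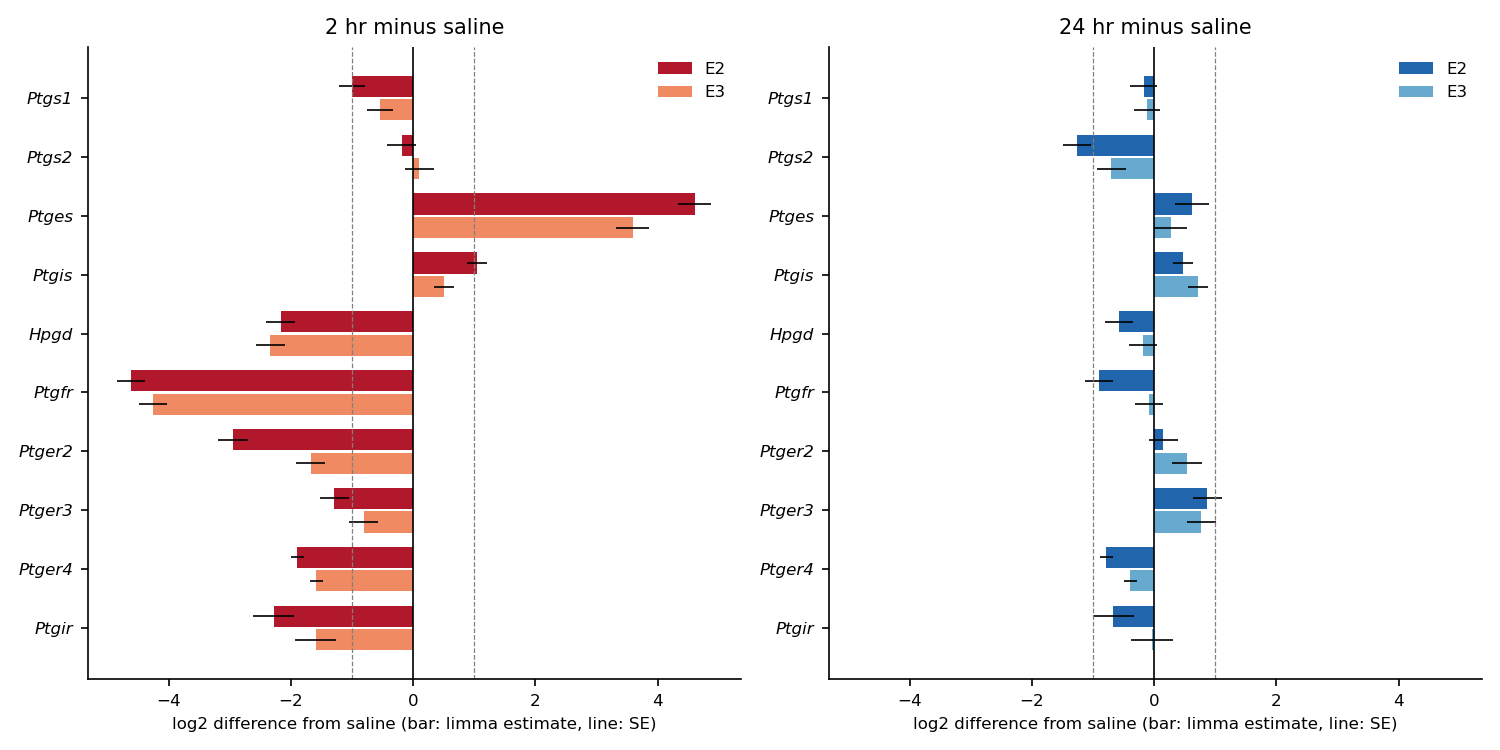
Log2 difference from the saline arrays (x axis; bars are limma estimates, lines are SE, n = 3 arrays a group) for the 10 genes at 2 hr (left) and 24 hr (right), with dashed lines at 2-fold. The 2-hr bars reach 4.60 for Ptges and -4.61 for Ptgfr, and at 24 hr only the E2 bar of Ptgs2, at -1.26, passes a dashed line.

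Ptges encodes the inducible microsomal prostaglandin E synthase, and its probe lies at chr2:30899629-30899688 of the array's mm7 annotation. Its level was -2.24, -2.50 and -2.09 on the saline arrays, 1.62, 2.63 and 2.74 at 2 hr after E2, and 1.39, 1.49 and 1.08 at 2 hr after E3. The 3 groups did not overlap, and E2 lay above E3. Ptges rose by 4.60 ± 0.27 (log2, SE) after E2, or 24.3-fold (adjusted p = 6.22e-08), and rose by 3.59 ± 0.27 after E3, or 12.1-fold (adjusted p = 7.63e-07). The E2 change was the 65th largest rise among 34766 probes, and the E3 change the 153rd among 34776. At 24 hr the levels were -1.78, -1.64 and -1.56 after E2 and -2.04, -1.59 and -2.40 after E3. The 24-hr differences from saline were 0.62 ± 0.27 (adjusted p = 0.068) and 0.27 ± 0.27 (adjusted p = 0.487), neither of them called, and the E3 arrays overlapped those of saline.

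Ptgs2, the inducible cyclooxygenase, was dim in every group, and it was measured by 2 probes. The brighter probe, at chr1:150032900-150032959, read 54.7, 69.7 and 65.3 intensity units on the saline arrays, and its normalized level there was -5.77, -5.77 and -6.08. The 2-hr levels were -5.89, -6.14 and -6.17 after E2 and -5.82, -6.06 and -5.44 after E3, all within or near the saline range. Neither 2-hr difference was called (-0.19 ± 0.23, adjusted p = 0.496 for E2 and 0.10 ± 0.23, adjusted p = 0.748 for E3), nor was that of the other probe (-0.65 ± 0.24, adjusted p = 0.0347 for E2). At 24 hr the levels lay below saline, at -6.74, -7.41 and -7.26 after E2 and at -6.58, -7.01 and -6.14 after E3. Ptgs2 fell by 1.26 ± 0.23 after E2 at 24 hr, or 2.40-fold (adjusted p = 0.000534), and its other probe differed by -1.20 (adjusted p = 0.000982). After E3 the difference was -0.70 ± 0.23 (adjusted p = 0.0361), short of 2-fold, and its sign was not stable, since it was 0.77 under another background correction (normexp), where the median of all probes was 0.32. The lowest signals well above background lay between -8.29 and -7.76 on the 15 arrays, and under normexp the E2 difference was -0.47 and the call was lost, as it was under quantile normalization (-1.11) and without the array of E2 24 hr replicate 2 (-1.13).

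Ptgs1, the cyclooxygenase expressed constitutively in many tissues (chr2:36257684-36257743), was 1.61, 1.19 and 1.06 on the saline arrays and 0.40, 0.29 and 0.18 at 2 hr after E2. The groups did not overlap, and the decrease of 2.001-fold (SE of the log2 difference 0.22, adjusted p = 0.00154) sat at the cutoff, and the call was lost without saline replicate 1 or 2, any E2 2 hr array, E2 24 hr replicate 2 or E3 24 hr replicate 3 (-1.06 to -0.84). After E3 at 2 hr the levels were 1.02, 0.97 and 0.23, with 1 array far below the other two, and the difference of -0.55 ± 0.22 was not called (adjusted p = 0.0531). At 24 hr Ptgs1 was -0.18 ± 0.22 from saline after E2 and -0.12 ± 0.22 after E3, and both groups overlapped saline.

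Ptgis, the prostacyclin synthase (chr2:166947459-166947518), was 0.29, 0.45 and 0.75 on the saline arrays and 1.68, 1.54 and 1.41 at 2 hr after E2. It rose by 1.05 ± 0.17 (adjusted p = 0.000138), just over 2-fold, and the call was lost under normexp (0.98), under quantile normalization (0.98), with the percentile taken over only the probes that cleared background on every array (0.99) and without saline replicate 1 (0.94) or E2 2 hr replicate 1 (0.98). In the other 3 treated groups every array also lay above the saline arrays. Those differences were 0.50 ± 0.17 for E3 at 2 hr (adjusted p = 0.024), 0.48 ± 0.17 for E2 at 24 hr (adjusted p = 0.0247) and 0.72 ± 0.17 for E3 at 24 hr (adjusted p = 0.00598), all under 2-fold.

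Hpgd, which inactivates prostaglandins (chr8:54721339-54721398), was 1.59, 1.35 and 1.55 on the saline arrays. At 2 hr it was 0.02, -0.93 and -1.12 after E2 and -0.69, -0.98 and -0.87 after E3, below saline on all 6 arrays. It fell by 2.17 ± 0.23 after E2, or 4.50-fold (adjusted p = 5.83e-06), and fell by 2.34 ± 0.23 after E3, or 5.06-fold (adjusted p = 5.54e-06). A separate Hpgd probe was -2.07 and -2.29 from saline. At 24 hr the levels were 1.07, 0.82 and 0.85 after E2, still below the saline arrays, and 1.44, 1.40 and 1.10 after E3, overlapping them. These differences were -0.58 ± 0.23 (adjusted p = 0.0465) and -0.18 ± 0.23 (adjusted p = 0.588), and neither was called. At 2 hr the prostaglandin E synthase was thus high and the degrading enzyme low on the same 6 arrays.

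Ptgfr encodes FP, the receptor for prostaglandin F2α, which drives contraction of the myometrium. On its brighter probe, at chr3:151701401-151701460, the level was 0.22, 0.15 and 0.29 on the saline arrays. At 2 hr it was -3.71, -4.83 and -4.64 after E2 and -4.17, -4.06 and -3.87 after E3. These are the values by which the gene entered the set, and they correspond to differences of -4.61 ± 0.23 and -4.26 ± 0.23, or 24.5-fold and 19.1-fold. In intensity units, the probe read 3492 to 5385 on the saline arrays, 128 to 321 after E2 and 201 to 268 after E3. Its other probe, at chr3:151697688-151697747, was -4.06 and -3.91 from saline.

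At 24 hr, a time that did not enter the choice of Ptgfr, the levels were -0.82, -0.51 and -0.72 after E2 and 0.29, 0.20 and -0.10 after E3. The E2 arrays lay below those of saline and the E3 arrays overlapped them. Ptgfr was -0.91 ± 0.23 from saline after E2 (adjusted p = 0.00446), short of 2-fold, while its other probe fell by 1.55 ± 0.30 (adjusted p = 0.000778) and was called. After E3 the difference was -0.09 ± 0.23 (adjusted p = 0.805) on the brighter probe and -0.57 ± 0.30 (adjusted p = 0.167) on the other. E3 exceeded E2 at 24 hr by 0.82 ± 0.23 on the brighter probe and 0.98 ± 0.30 on the other, with no overlap of the arrays (adjusted p = 0.0149 and 0.0237), and neither met the cutoffs for a call.

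Over the 15 arrays, the 5 probes of other genes most like Ptgfr, of 29723 compared, were those of Bbs10 (r = 0.995 and 0.994 on its 2 probes), Nr2f2 (0.995), Zfp688 (0.994) and 6820416H06Rik (0.993). Bbs10 encodes a chaperonin-like Bardet-Biedl syndrome protein, and Nr2f2 encodes the nuclear receptor COUP-TFII of the uterine stroma. Nr2f2 averaged 1.22 on the saline arrays, -2.86 and -2.70 at 2 hr after E2 and E3, and 0.37 and 0.80 at 24 hr. These arrays fall into 5 groups and share their treatment, so r is a description of the same low-at-2-hr pattern.

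Among the 10 genes, 3 encode receptors for prostaglandin E2. Ptger2, encoding EP2 (chr14:40319852-40319911), was -1.82, -1.73 and -1.90 on the saline arrays, -4.28, -4.72 and -5.29 at 2 hr after E2, and -3.75, -3.64 and -3.10 at 2 hr after E3. The 3 groups did not overlap, and E2 was lowest. It fell by 2.95 ± 0.24 after E2, or 7.71-fold (adjusted p = 7.07e-07), and fell by 1.68 ± 0.24 after E3, or 3.21-fold (adjusted p = 0.000108). At 24 hr the levels were -1.78, -1.48 and -1.73 after E2 and -0.97, -1.59 and -1.27 after E3, with differences from saline of 0.15 ± 0.24 (adjusted p = 0.614) and 0.54 ± 0.24 (adjusted p = 0.106).

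Ptger4, encoding EP4 (chr15:5059293-5059352), had the smallest SE of the 10 genes. It was 0.39, 0.53 and 0.48 on the saline arrays, -1.49, -1.18 and -1.64 at 2 hr after E2, and -1.20, -1.17 and -1.003 at 2 hr after E3. It fell by 1.90 ± 0.11 after E2, or 3.73-fold (adjusted p = 4.81e-08), and fell by 1.59 ± 0.11 after E3, or 3.01-fold (adjusted p = 3.45e-07). The 24-hr levels of -0.35, -0.24 and -0.36 after E2 and 0.08, 0.00 and 0.15 after E3 lay between those at 2 hr and those of saline. The 24-hr differences were -0.78 ± 0.11 (adjusted p = 6.22e-05) and -0.39 ± 0.11 (adjusted p = 0.0164), both under 2-fold. A separate probe for Ptger4, at chr15:5031549-5031608, went its own way (0.54 ± 0.20 for E2 at 2 hr and -1.92 ± 0.20 for E2 at 24 hr), but it was well above background on only 3 of the 15 arrays.

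Ptger3, encoding EP3 (chr3:157552710-157552769), was -0.18, -0.57 and 0.17 on the saline arrays and -0.90, -1.82 and -1.72 at 2 hr after E2. It fell by 1.29 ± 0.24, or 2.45-fold (adjusted p = 0.000474), and its other tested probe fell by 1.68. The call was lost without E2 2 hr replicate 2 (-1.12) or replicate 3 (-1.17). After E3 at 2 hr the levels were -1.19, -0.92 and -0.90, and the difference of -0.81 ± 0.24 (adjusted p = 0.0132) was not called. At 24 hr all 6 treated arrays lay above the saline arrays, at 0.92, 0.60 and 0.52 after E2 and 0.41, 0.72 and 0.59 after E3. These differences were 0.87 ± 0.24 (adjusted p = 0.00711) and 0.77 ± 0.24 (adjusted p = 0.0267), neither of them called. The other tested probe gave 1.09 ± 0.27 and 1.00 ± 0.27 (adjusted p = 0.00382 and 0.0138), and neither was called. Ptger3 was below saline at 2 hr and above it at 24 hr on both probes and after both hormones.

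Ptgir, encoding the prostacyclin receptor IP (chr7:14674320-14674379), was -1.06, -0.76 and -0.97 on the saline arrays. At 2 hr it was -2.34, -3.56 and -3.75 after E2 and -2.86, -2.90 and -1.82 after E3, with 1 array of each group well above the other two. It fell by 2.29 ± 0.34 after E2 (adjusted p = 8.64e-05) and fell by 1.60 ± 0.34 after E3 (adjusted p = 0.00186), and the E3 call was lost without any saline array or without E3 2 hr replicate 1 or 2 (-1.66 to -1.41), and with the replicate block (-1.60). At 24 hr it was -0.67 ± 0.34 from saline after E2 (adjusted p = 0.105) and -0.04 ± 0.34 after E3 (adjusted p = 0.947). A separate probe, at chr7:14671086-14671145, was well above background on all 15 arrays and did not fall, at 0.04 ± 0.21 for E2 and -0.10 ± 0.21 for E3 at 2 hr (adjusted p = 0.87 and 0.739). The fall of Ptgir therefore rests on 1 of its 2 probes.

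**Figure D3:**
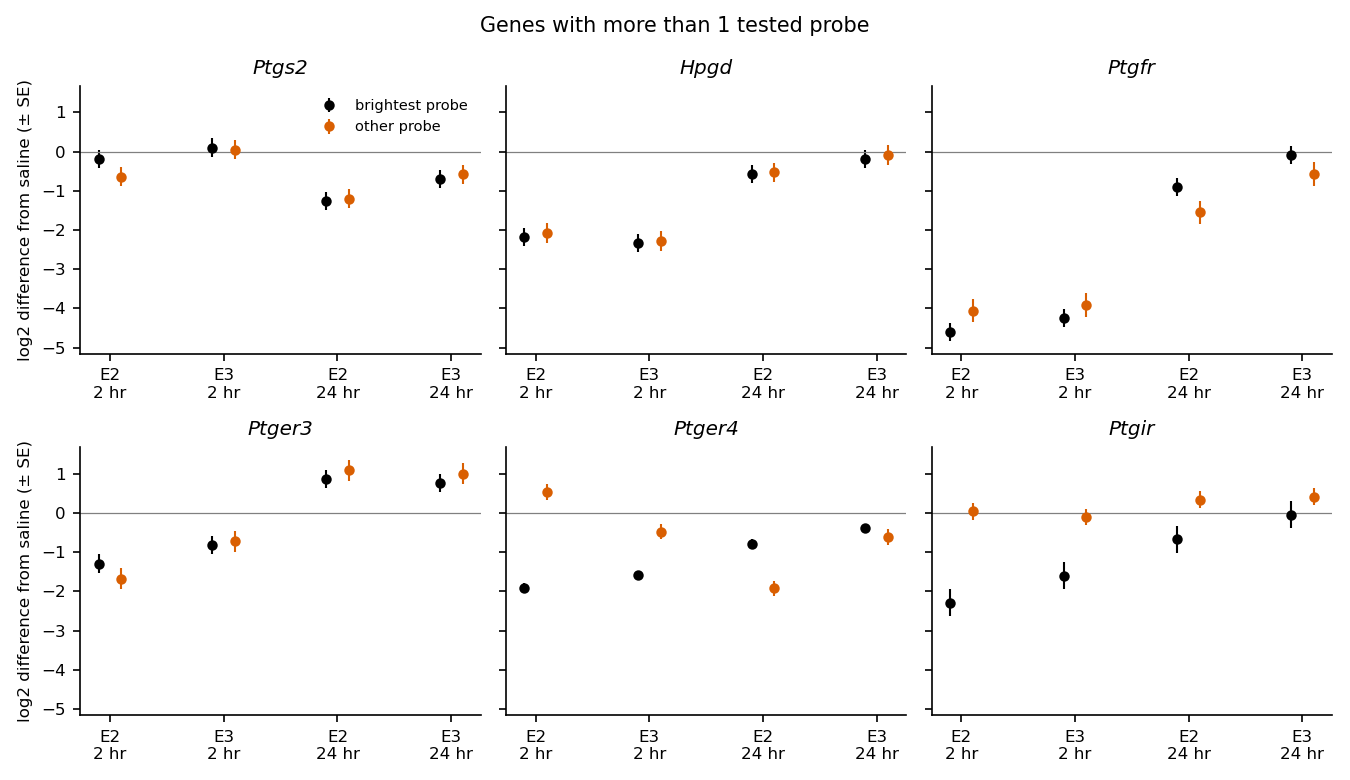
Log2 difference from saline (y axis, ± SE, n = 3 arrays a group) of the 6 genes with more than 1 tested probe in the 4 treated groups (x axis); black points are the brightest probe and orange points the other. Both probes of Ptgfr are near -4 at 2 hr (-4.61 and -4.06 for E2), and the 2 probes of Ptgir differ (-2.29 and 0.04).

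The probes of Ptgs2, Hpgd, Ptgfr and Ptger3 had the same sign in each of the 4 comparisons with saline, whereas those of Ptger4 and Ptgir did not in all of them.

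Both compounds were given at 250 ng, and E3 was compared with E2 at each time to see how far estriol, known as a weaker estrogen, matched it. At 2 hr, 1 of the 10 genes was called, with 7.37% of all tested probes. Ptger2 was 1.27 ± 0.24 higher after E3 than after E2, or 2.41-fold (95% interval 0.74 to 1.79, adjusted p = 0.00132), and all 3 E3 arrays were above all 3 E2 arrays. Without the array of E3 2 hr replicate 3 the difference was 1.07 and no longer called. Ptges was lower after E3 by a log2 difference of -1.01 ± 0.27 (95% interval -1.61 to -0.42, adjusted p = 0.0105), again with no overlap. That difference missed the p cutoff, but without the array of E2 2 hr replicate 1 it was -1.37 and called. Ptgis was also lower after E3, by -0.55 ± 0.17 (adjusted p = 0.018). For the other genes called lower at 2 hr after E2, no E3 minus E2 difference was called on the brightest probe, and the 95% intervals differed in width. A 2-fold difference lies outside those of Hpgd (-0.67 to 0.34), Ptger4 (0.07 to 0.55) and Ptgs1 (-0.02 to 0.93). It lies inside that of Ptgir (-0.05 to 1.43), and that of Ptger3 (-0.04 to 0.999) ends just short of it, with 0.38 to 1.55 on its other tested probe. The 2-hr comparison carries the strain, slide and scanner differences of the E2 arrays.

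At 24 hr, where strain and scanner were shared and slides were not, 0 of the 10 genes were called between E3 and E2, with 4.85% of all probes called, and 3 had an unadjusted limma p below 0.05, beside 45.5% of all probes. These were Ptgs2 (0.56 ± 0.23, adjusted p = 0.0805, arrays overlapping), Ptgfr (above) and Ptger4 (0.39 ± 0.11, adjusted p = 0.0142), all higher after E3. The median difference of the 10 genes was 0.39, beside 0.06 over all tested probes. The change of the E3 minus E2 difference from 2 to 24 hr was called for 0 of 10 genes, with 15.5% of all probes called, and its unadjusted p was below 0.05 for 2 of 10, Ptgis (0.79 ± 0.23, adjusted p = 0.0153) and Ptger2 (-0.88 ± 0.34, adjusted p = 0.0532), beside 53.3% of all probes.

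**Figure D4:**
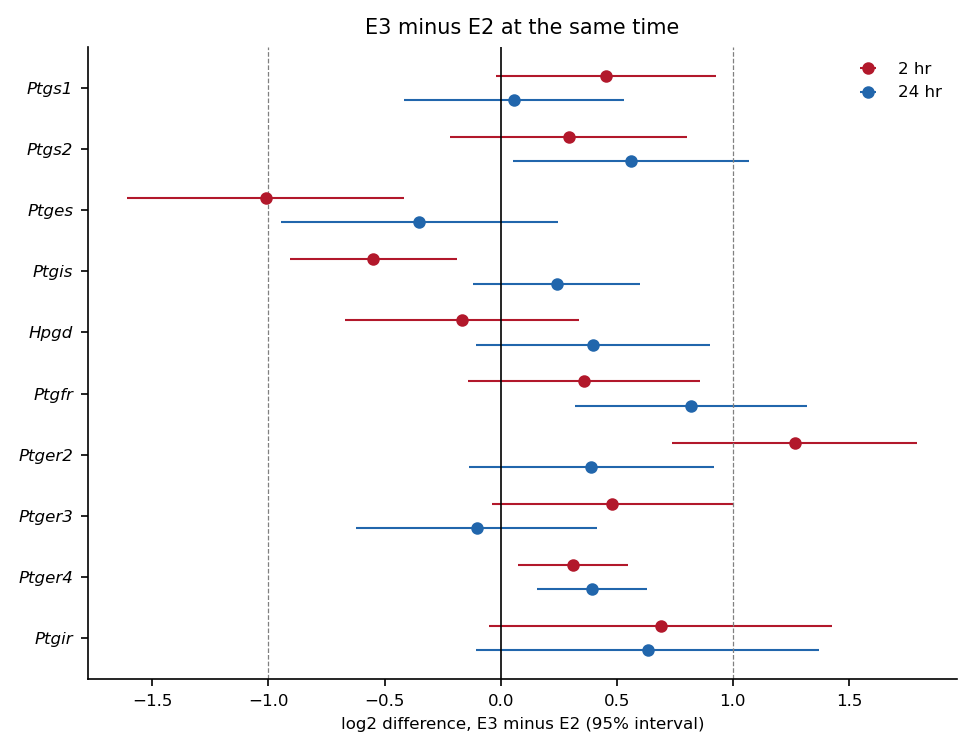
Log2 difference of E3 minus E2 at 2 hr (red) and 24 hr (blue) for the 10 genes (x axis; points are limma estimates, lines are 95% intervals, n = 3 arrays a group), with dashed lines at 2-fold. Ptger2 at 2 hr, at 1.27, is farthest to the right and Ptges at 2 hr, at -1.01, farthest to the left.

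Arrays that do not overlap were common in these data. The treated and saline arrays did not overlap for 8 of the 9 genes other than Ptgfr at 2 hr after either hormone, beside 67.2% of all probes for E2 and 58.1% for E3. At 24 hr they did not overlap for 8 of the 10 genes after E2 and 5 after E3, beside 68.9% and 51.5%. The E3 and E2 arrays did not overlap for 3 genes at 2 hr and 4 at 24 hr, beside 50.8% and 51.3%.

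A list of 29 further genes of the pathway, written from knowledge of the pathway, had 28 with a tested probe. Against saline, 3 were called for E2 at 2 hr (10.7% of the list), 4 for E3 at 2 hr (14.3%), 8 for E2 at 24 hr (28.6%) and 3 for E3 at 24 hr (10.7%), beside the 21.2%, 13.8%, 18.1% and 3.81% of all probes given above. The median log2 difference of the list was -0.30 in both 2-hr comparisons, 0.30 for E2 at 24 hr and 0.21 for E3 at 24 hr, beside -0.08, -0.11, -0.06 and -0.01 over all probes. At 2 hr Pparg, the nuclear receptor that binds prostaglandin J2 metabolites and is known for fat cell differentiation, rose by 3.59 ± 0.23 after E2 (adjusted p = 9.72e-08) and by 3.04 ± 0.23 after E3 (adjusted p = 6.94e-07). It was -1.21, -1.49 and -0.71 on the saline arrays, 2.14, 2.85 and 2.37 after E2 and 1.87, 2.14 and 1.68 after E3. The list of fat markers, summed over its 5 genes, spanned 4.06 to 6.42 on the saline arrays, 4.79 to 5.60 at 2 hr after E2 and 4.87 to 6.24 after E3. Of these markers, 0 of 5 were called at 2 hr, and their part in the Pparg values was not tested.

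Pla2g10, a secreted phospholipase A2 that releases arachidonic acid, was lower in all 4 comparisons with saline. It differed by -1.79 ± 0.29 and -1.47 ± 0.29 at 2 hr after E2 and E3 (adjusted p = 0.00018 and 0.00113), and by -2.93 ± 0.29 and -1.27 ± 0.29 at 24 hr (adjusted p = 4.91e-06 and 0.00578). Slco2a1, the prostaglandin uptake transporter, rose by 1.34 ± 0.16 after E3 at 2 hr (adjusted p = 2.02e-05). After E2 its difference was 0.94 ± 0.16 (adjusted p = 0.000227), just short of 2-fold, and E3 against E2 was not called (0.41, adjusted p = 0.0531). Hpgds, the hematopoietic prostaglandin D synthase, rose by 1.08 ± 0.18 after E3 at 2 hr (adjusted p = 0.000326), where E2 gave 0.45 and the difference between them was not called (0.63, adjusted p = 0.0139), and it fell by 1.30 ± 0.18 after E2 at 24 hr (adjusted p = 5.77e-05). The 6 leukocyte markers had a summed level of 2.48 to 3.86 on the saline arrays, 1.93 to 2.66 at 2 hr after E2 and 2.72 to 4.63 at 2 hr after E3, with 0 of 6 called in either comparison and none called between E3 and E2, and their part in the Hpgds values was not tested. Tbxa2r, the thromboxane receptor, fell by 1.01 ± 0.14 after E2 at 2 hr (adjusted p = 6.36e-05), at the 2-fold cutoff, and was -0.96 ± 0.14 after E3 (adjusted p = 0.00015), just under it.

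Of the 4 metabolizing enzymes listed, Cbr2 and Ptgr1 were called higher at 24 hr after both hormones. At that time Ptgr2 was 0.575 and 0.405 from saline after E2 and E3 (adjusted p = 2.44e-05 and 0.00133), short of 2-fold. Cbr1 was -0.17 and 0.10 from saline and was not called. The carbonyl reductase Cbr2 rose by 2.64 ± 0.25 after E2 and 2.05 ± 0.25 after E3 (adjusted p = 3.69e-06 and 2e-04), and the prostaglandin reductase Ptgr1 by 1.30 ± 0.13 and 1.38 ± 0.13 (adjusted p = 4.49e-06 and 5.26e-05). Called at 24 hr after E2 but not after E3, the prostaglandin E synthase Ptges2 rose by 1.43 ± 0.12 (adjusted p = 1.82e-06), the aldo-keto reductase Akr1b7 by 1.17 ± 0.10 (adjusted p = 2.26e-06) and the secreted phospholipase Pla2g2e by 1.98 ± 0.24 (adjusted p = 2.15e-05). Akr1b7 was 0.61 from saline after E3 (adjusted p = 0.00117), and E3 against E2 was not called for it (-0.56, adjusted p = 0.00139). The efflux transporter Abcc4 fell by 1.25 ± 0.15 after E2 at 24 hr (adjusted p = 1.97e-05) and was -0.83 ± 0.15 after E3 (adjusted p = 0.00152), with no call between them (0.41). Between E3 and E2 at 24 hr, 4 of 28 were called (14.3%), beside 4.85% of all probes. Ptges2 (-1.12 ± 0.12) and Pla2g2e (-1.09 ± 0.24) were lower after E3, and Pla2g10 (1.66 ± 0.29) and Hpgds (1.01 ± 0.18) were higher. At 2 hr the carbonyl reductase Cbr1 differed by -1.51 ± 0.12 between E3 and E2, lower after E3 (adjusted p = 3.91e-06). It was the 1 gene of 28 called there (3.57%), beside 7.37% of all probes. Against saline Cbr1 was 0.81 after E2 and -0.70 after E3 (adjusted p = 8.12e-05 and 0.000398), and neither was called. These values carry the strain, slide and scanner differences of the 2-hr E2 arrays.

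**Figure D5:**
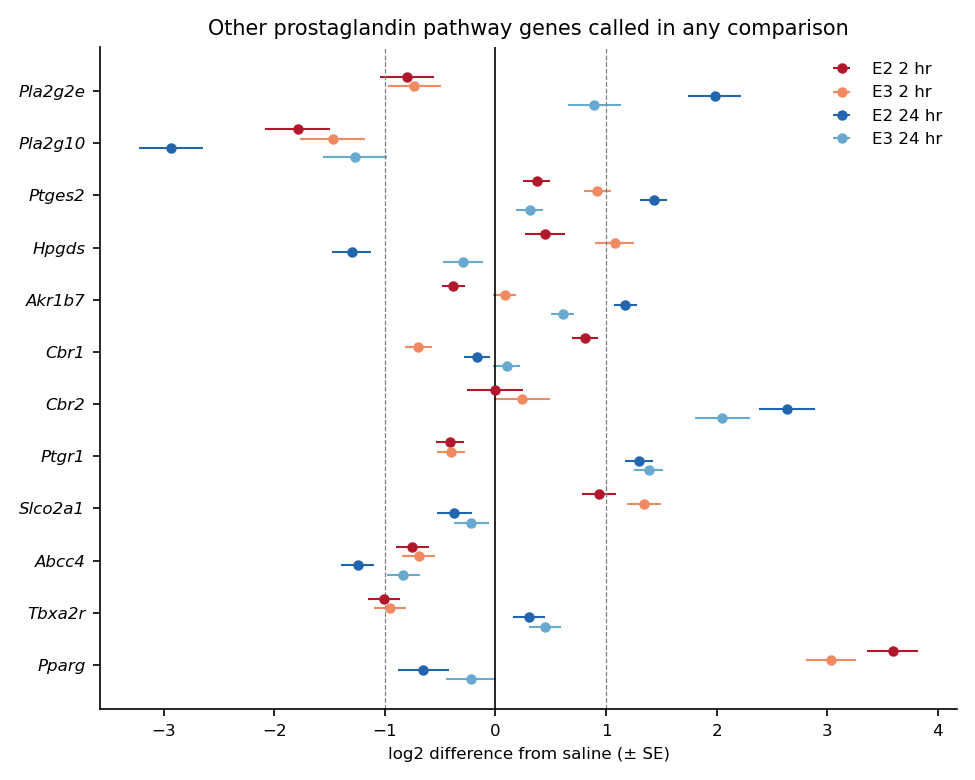
Log2 difference from saline (x axis, ± SE, n = 3 arrays a group) of the 12 further pathway genes (y axis) called in any comparison, for E2 and E3 at 2 and 24 hr, with dashed lines at 2-fold. Pparg stands out at 2 hr (3.59 and 3.04) and Cbr2 and Pla2g10 at 24 hr of E2 (2.64 and -2.93).

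Markers of other tissues moved with some groups, and their part in the results was not tested. All 6 liver markers were called lower after E2 at 2 hr and at 24 hr, 5 of 6 after E3 at 24 hr and 1 of 6 after E3 at 2 hr. Their summed level was 2.08 to 3.98 on the saline arrays, -4.97 to -4.59 at 2 hr after E2 and 0.06 to 1.40 at 2 hr after E3. At 2 hr all 6 liver markers were called higher after E3 than after E2. Uterine markers were present on all arrays, and 3 of 6 (among them Hoxa10, from 3.05 on the saline arrays to 1.70 after E2 and 1.16 after E3) were called lower at 2 hr after either hormone, while 1 of 6 was called higher (Pgr, the progesterone receptor, from -2.00 to 0.45 and 0.12). At 24 hr of E2, 4 of 7 epithelial, 2 of 6 smooth muscle, 2 of 5 skeletal muscle and 1 of 6 uterine markers were called higher and 1 of 4 endothelial markers lower, and at 24 hr of E3 1 of 6 smooth muscle markers was called higher. At 2 hr of E2, 1 of 7 epithelial and 1 of 5 skeletal muscle markers were called lower. The exocrine pancreas markers spanned -3.82 to 7.93 in summed level at 2 hr of E3 and -2.82 to 6.62 at 24 hr of E2, and 1 of them (Ela2) was not well above background on any array. One slide held the 3 arrays of E3 at 2 hr and 1 saline array. Within that slide the E3 differences were 3.41 for Ptges, -2.39 for Hpgd, -4.32 for Ptgfr, -1.59 for Ptger2, -1.60 for Ptger4 and -1.56 for Ptgir, with no test. For the remaining genes they were -0.32 for Ptgs1, 0.31 for Ptgs2, 0.25 for Ptgis and -1.17 for Ptger3. Against all saline arrays these genes gave -0.55, 0.10, 0.50 and -0.81.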

How the data were processed

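The 15 one-color arrays (Agilent whole mouse genome design, Cy3) were scanned by the authors, who extracted signals with Agilent Feature Extraction, version 9.5 per the labels and 9.5.3.1 per the file headers. The deposited values are processed intensities on a linear scale, background-subtracted and not normalized between arrays, and the deposited table of the whole series holds the same intensity values.

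The analysis here ran in R (4.3.3) with limma (3.58.1), and the figures in python (3.11.15) with matplotlib (3.10.9). Spots flagged as outliers by the scanner software were set aside (1893 over the 15 arrays), spots of the same probe were averaged on the log2 scale, and the array's 75th percentile over spots that are not controls was subtracted. The tests took probes that passed the well-above-background flag on 2 or more arrays of some group (34776 of 41174, 84.5%; 34766 in comparisons with E2 at 2 hr). A single limma model of the 5 group means over the 15 arrays, with 10 residual degrees of freedom and 2.06 from the prior, gave 7 comparisons, adjusted by Benjamini-Hochberg over all tested probes. A call needed p below 0.001 and 2-fold. This scaling rests on the assumption that most probes are stable, and 3 arrays a group limit the precision. The procedure was tested on simulated data.

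The 10 genes, the pathway list and the markers were chosen with earlier results of these data known. Named genes were the 10 members, pathway genes called in any comparison, and the 5 probes most correlated with Ptgfr. Of the markers, Hoxa10, Pgr and Ela2 were named as examples. Alternatives tried were normexp (offset 50) for the background, quantile normalization, 2 other scalings, no filter on dim probes, 2 other call rules, slide and replicate number as blocks, the dimmest tested probe of each gene, and each array left out in turn. Probe positions are those of the array annotation (mm7), for which no gene models were used here, so exons were not assigned.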

Additional observations from a re-analysis of the deposited data

Results flagged for a closer look

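The E3 minus E2 difference at 24 hr minus that at 2 hr was tested for each gene, and 3 of the 16 tested probes of the 10 genes had an adjusted p below 0.05, beside 46% of all probes. Ptgis changed by 0.79 (log2, limma adjusted p = 0.0153), from -0.55 at 2 hr to 0.24 at 24 hr, and was short of 2-fold. The other probe of Ptger3 changed by -1.06 (adjusted p = 0.0392), while its brighter probe changed by -0.58 (adjusted p = 0.176). The other probe of Ptger4 changed by 2.32 (adjusted p = 6.13e-05), and it was well above background on only 3 of 15 arrays, while the brighter probe changed by 0.08 (adjusted p = 0.69). Among the 28 further pathway genes with a tested probe, the change was called for 3 (10.7%), beside 15.5% of all probes. They were Cbr1 (1.77, adjusted p = 1.45e-05), Ptges2 (-1.67, adjusted p = 2.4e-05) and Akr1b7 (-1.03, adjusted p = 0.000181). The 2-hr E2 arrays enter each of these differences, and their strain, slides and scanner cannot be told apart from the treatment.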

How the results depend on the processing

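Against saline at 2 hr, without Ptgfr, the counts were 8 for E2 and 5 for E3. With 1 array left out they were 6 to 8 and 4 to 5, beside 19.4% to 22.2% and 12.9% to 14% of all probes. They were 6 and 3 with the dimmest tested probes, and 6 to 8 and 4 to 5 under the remaining alternatives. Over those alternatives the share of all probes ran from 10.9% (normexp) to 41.2% (no minimum change) for E2. For E3 it ran from 6.56% to 30.2% under the same settings. The other counts are small. For E2 at 24 hr the count of 1 became 0 with normexp (8.3% of all probes) and with quantile normalization (16.8%), 2 with no minimum change (39.3%) and 3 with the dimmest probes. It was 0 to 1 over left-out arrays (15.9% to 18.3%). For E3 at 24 hr it was 1 with no minimum change (16% of all probes). For E3 against E2 at 2 hr it was 2 with adjusted p below 0.05 (10.1% of all probes) and with the dimmest probes. Over left-out arrays it was 0 to 2 (6.28% to 7.63%). With the dimmest probes it was also 1 for E3 against E2 at 24 hr and 1 for the change from 2 to 24 hr. The dimmest-probe counts come from the main fit, so their shares of all probes are those of the Results. The pathway count for that change, 3, was 6 of 28 with adjusted p below 0.05, beside 20.2% of all probes.

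Without scaling between arrays, the calls of Ptgs1 and Ptger3 for E2 at 2 hr, of Ptgir for E3 at 2 hr and of Ptger2 between E3 and E2 were lost, and Ptges was called between E3 and E2. The call of Ptgis for E2 at 2 hr was lost with the percentile taken over only the probes that cleared background on every array (0.99). Signs turned as follows. With the dimmest probe, Ptger4 was 0.54 for E2 at 2 hr and -1.01 for E3 against E2 at 2 hr; Ptgir was 0.044 and 0.34 for E2 at 2 and 24 hr, 0.42 for E3 at 24 hr, -0.14 for E3 against E2 at 2 hr and 0.22 for the change from 2 to 24 hr; and Ptgs2 was -0.063 for that change. Normexp raised the median of all probes to 0.32 for E3 at 24 hr, 0.44 for E3 against E2 at 24 hr and 0.48 for the change. Under it Ptgs2 was 0.77 and Ptgir 0.056 for E3 at 24 hr, Ptgs1 was -0.012 for E3 against E2 at 24 hr, and Ptgir was 0.15 for the change. Over left-out arrays, Ptgs2 spanned -0.065 to 0.24 for E3 at 2 hr, and Ptgs1 -0.23 to 0.041, Ptgfr -0.17 to 0.027 and Ptgir -0.11 to 0.05 for E3 at 24 hr. Hpgd spanned -0.39 to 0.18 for E3 against E2 at 2 hr, Ptgs1 -0.11 to 0.19 and Ptger3 -0.18 to 0.016 at 24 hr, and Ptger4 -0.048 to 0.18 and Ptgir -0.49 to 0.30 for the change. The cause was not tested.

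Replicate numbers of the labels did not pair the arrays (mean correlation of same-numbered deviations 0.006 over 30 pairs, -0.46 to 0.54). With the replicate number as a block, 8, 4, 1 and 0 genes were called against saline (Ptgfr left out at 2 hr), beside 20.8%, 13.6%, 17.7% and 3.66% of all probes, and 1, 0 and 0 in the other comparisons, beside 7.13%, 4.71% and 15%, the missing gene being Ptgir for E3 at 2 hr. With slide as a random block the estimated correlation was -0.0125. Replicate 1 of E2 at 2 hr was alone of its group on its slide. It was the least changed of its group for Ptges, Ptgs1, Hpgd, Ptgfr, Ptger2, Ptger3 and Ptgir, but not for Ptger4 or Ptgis. Signal over background limits Ptgs2, the other probe of Ptger4 and Pla2g2e, which was not well above background on 5 of the 6 arrays at 2 hr.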
